A study of Homo sapiens with 4 samples.

Results

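Serotonergic neurons in human enteric ganglioids were examined by single-nucleus RNA sequencing. Enteric ganglioids are free-floating clusters of enteric nervous system cells, here grown in suspension from H9, an established human embryonic stem cell line. A nucleus counted as serotonergic when the deposited annotation placed it among the enteric neurons and gave it a serotonergic transmitter identity. The rule selected 1740 of the 6321 enteric neurons with a call in that column, out of 14812 annotated nuclei of every class. The 4 samples gave 563, 237, 739 and 201 serotonergic nuclei for control replicate 1, control replicate 2, PP121 replicate 1 and PP121 replicate 2. The other 4581 neurons with a call formed the comparison group, and 236 enteric neurons without a call were left out.

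All 4 samples were labelled stage 1 ganglioids of the same line, with no genetic modification named. Inside the annotation of the control files the sample names differ from these labels: that of control replicate 1 names replicate 2, and that of control replicate 2 names replicate 1 of stage 2. The 2 PP121 samples had received 2 µM PP121, a multi-targeted inhibitor of receptor tyrosine kinases, from day 15 to day 20, and the 2 control samples were labelled only as control. Replicates were labelled as separate differentiations, and the annotation recorded replicate 1 of each group at day 42 and replicate 2 at day 38. Ganglioids were dissociated together into 1 library per sample, and all results rest on a stem cell line in culture without gut epithelium, muscle or microbes.

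Serotonin is made from tryptophan by tryptophan hydroxylase, for which there are separate genes, and by aromatic L-amino acid decarboxylase, encoded by DDC. TPH2 is the hydroxylase usually used by neurons, and TPH1 that of gut enterochromaffin cells and the pineal gland. A vesicular monoamine transporter (SLC18A1 or SLC18A2) loads serotonin into vesicles, the plasma membrane transporter SLC6A4 takes it back up, and monoamine oxidase degrades it. In the gut wall, serotonergic neurons are a small class of interneurons of the myenteric plexus. In the GENCODE annotation of GRCh38, TPH1 lies on chromosome 11 (18017564 to 18042426, minus strand), TPH2 on chromosome 12 (71938846 to 72186618, plus strand) and SLC6A4 on chromosome 17 (30194319 to 30236002, minus strand).

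The label was first set against TPH1, TPH2 and SLC6A4, taken here as its markers. They were counted as unique molecular identifiers (UMIs), each of which stands for 1 captured RNA molecule. TPH1 gave 44, 29, 54 and 24 UMIs in the serotonergic neurons of control replicate 1, control replicate 2, PP121 replicate 1 and PP121 replicate 2, and 10, 6, 14 and 4 UMIs in the more numerous other neurons of the same samples. TPH2 gave 21, 21, 10 and 4 UMIs in serotonergic and 59, 22, 7 and 4 UMIs in other neurons. SLC6A4 gave 57, 35, 46 and 27 UMIs in serotonergic and 50, 34, 44 and 46 UMIs in other neurons. TPH1 was thus concentrated in the serotonergic nuclei of every sample, SLC6A4 less so, and most TPH2 molecules of control replicate 1 lay outside them. The call may rest on these genes, so their differences are described and not tested.

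Of the neurons that held a TPH1 UMI, 118 of 147 (80.3%, exact 95% interval 72.9 to 86.4%) carried the serotonergic call. The same was true of 42 of 118 neurons with a TPH2 UMI (35.6%, 27.0 to 44.9%) and of 135 of 291 with an SLC6A4 UMI (46.4%, 40.6 to 52.3%), against 27.5% of all neurons. By sample, the share for TPH1 was 80.0, 78.6, 76.8 and 91.3%, and that for TPH2 was 27.4, 40.0 and 53.8% in the first 3 samples and 4 of 8 nuclei in PP121 replicate 2, where 24.6, 19.2, 39.2 and 22.0% of all neurons had the call. TPH2 was thus close to the share of all neurons in control replicate 1, which held 62 of the 118 nuclei, and above it in control replicate 2 on 35 nuclei. In the PP121 samples it rested on 13 and 8 nuclei, and its intervals include the share of all neurons. Only 276 of the 1740 serotonergic neurons (15.9%) held a UMI of any of the 3 genes, compared with 248 of 4581 other neurons (5.41%). These intervals cover counting error only. The rule behind the serotonergic call is not given in the sources used here. Whether it also uses other serotonin genes, such as DDC or SLC18A2, is therefore not known. The study states that imputed expression was used after the cell types had been named, and most nuclei with the call held no molecule of these genes.

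Because the classes differed in depth, each nucleus was also thinned to 2000 UMIs (median before thinning 7980 UMIs in serotonergic neurons, 7110 in other neurons, 5269 in progenitor 1, 6491 in progenitor 2 and 7601 in mesenchymal nuclei). After thinning, a TPH1 UMI was found in 1.96% of serotonergic neurons (interval 1.36 to 2.72%), 0.0877% of other neurons, 0.0350% of progenitor 1, 0.344% of progenitor 2 and 0.223% of mesenchymal nuclei. The unthinned share was 6.78% of serotonergic and 0.633% of other neurons. TPH1 in serotonergic neurons was thus above the level in every other large class, which may be part of what the label selects. A TPH2 UMI was found in 0.575% of thinned serotonergic neurons, close to the 0.592% of other neurons and the 0.689% of progenitor 2 nuclei. The pooled TPH2 share thus stood near that of other neurons and progenitor 2, on 10 serotonergic nuclei. By sample it was 0.533, 2.11, 0.136 and 0.498% in serotonergic and 1.05, 0.503, 0.262 and 0.140% in other neurons, resting on 3, 5, 1 and 1 serotonergic nuclei. Without thinning it was 3.02, 5.91, 0.947 and 1.99% against 2.61, 2.11, 0.523 and 0.560%. Pooled without thinning it was 2.41% of serotonergic neurons, 1.66% of other neurons and 2.29% of progenitor 2 nuclei. Control replicate 2 had the highest TPH2 share in serotonergic neurons on both scales, and whether the samples differ in this was not tested. SLC6A4 was found in 2.36% of serotonergic neurons, 0.921% of other neurons and 2.01% of progenitor 2 nuclei. Its excess over other neurons may be part of what the label selects.

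**Figure D1:**
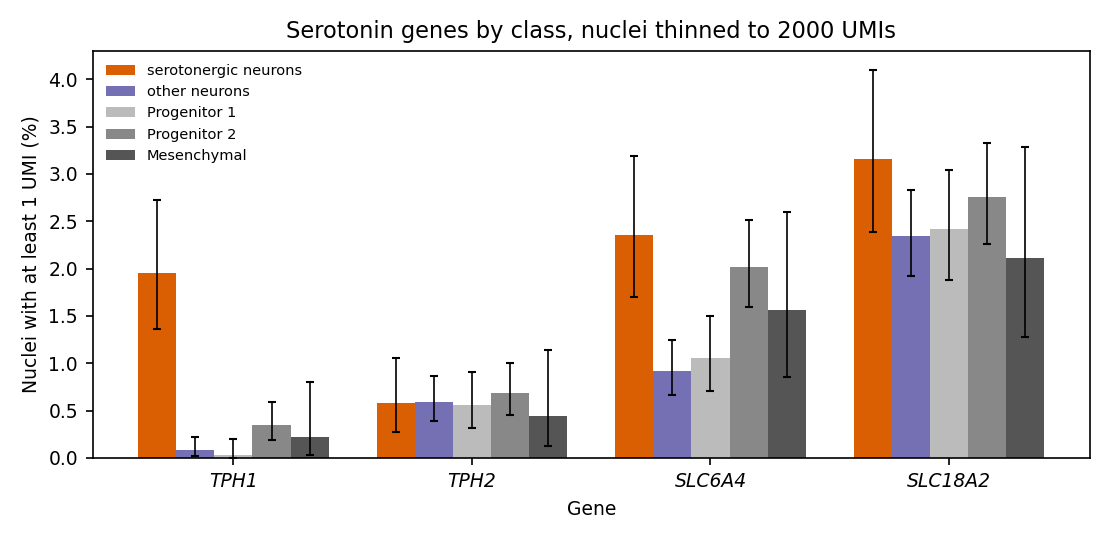
Share of nuclei with at least 1 UMI of TPH1, TPH2, SLC6A4 and SLC18A2 (vertical axis, percent) in serotonergic neurons, other neurons and 3 non-neuronal classes, pooled over the 4 samples after thinning to 2000 UMIs; bars are shares and lines exact 95% intervals. TPH1 stands apart in serotonergic neurons (1.96%), while TPH2 has overlapping intervals in all 5 classes. The excess of TPH1 may be part of what the label selects.

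The rest of the serotonin pathway was sparse. DDC gave 25 UMIs in all serotonergic neurons and 47 in other neurons. A DDC UMI was found in 1.32% of serotonergic neurons, 0.895% of other neurons, 0.207% of progenitor 1 and 0.184% of progenitor 2 nuclei without thinning, and in 0.345% of serotonergic and 0.373% of other neurons after it. No serotonergic nucleus held UMIs of both DDC and a tryptophan hydroxylase. A hydroxylase UMI was present in 158 serotonergic nuclei, of which 16 also held a vesicular monoamine transporter, and 2 held both TPH1 and TPH2. With so few molecules, co-detection of both enzymes was not measurable at this depth. SLC18A2, the neuronal vesicular transporter, was at 15.9, 16.1, 15.3 and 10.5 CPM (UMI counts per 1000000, scaled by the trimmed mean of M values, TMM) in serotonergic and 11.7, 12.3, 11.3 and 9.10 CPM in other neurons. All 4 differences had the same sign, but the gene did not pass the test described next (log2 difference 0.38, SE 0.15, edgeR adjusted p = 0.114). After thinning, SLC18A2 was found in 3.16% of serotonergic and 2.75% of progenitor 2 nuclei, with overlapping intervals.

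To find which other genes went with the label, counts were summed per sample and identity and compared within samples by edgeR's quasi-likelihood test. Leaving aside TPH1, TPH2 and SLC6A4, 2049 of 18049 genes passed an adjusted p of 0.05 (11.4% of genes tested), 1139 higher (6.31%) and 910 lower (5.04%) in serotonergic neurons. Without control replicate 1, control replicate 2 or PP121 replicate 1 the count was 174, 510 and 836. The largest rises included SPHKAP, SGCD and GABRG3, and the falls included the homeobox transcription factor gene SHOX2. The identity was assigned from these same libraries, so the p-values describe how stable a difference was over samples and are not independent evidence of a cell type. Serotonergic nuclei were also deeper in every sample (median 7950, 9001, 7324 and 9163 UMIs, against 7182, 7519, 6596 and 7410 in other neurons) and fewer of them were scored as G2M cycling (4.26, 4.64, 6.90 and 9.45%, against 11.4% or more in other neurons). The part of depth and cycle score in these differences was not tested beyond the thinned counts, in which 908 genes passed. Of these, 776 also passed in the full counts.

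SGCD, which encodes delta-sarcoglycan of the dystrophin-associated complex, was at 264, 112, 252 and 87.8 CPM in serotonergic neurons and at 68.3, 38.1, 84.9 and 38.4 CPM in other neurons of the same samples (samples in the order above). It was 3.02-fold higher (log2 1.59, SE 0.12, adjusted p = 0.000272) and the lowest serotonergic value exceeded the highest other value only narrowly. SPHKAP, an anchoring protein for protein kinase A, had the largest rise (log2 2.07, SE 0.39, adjusted p = 0.0109), with 79.3, 19.5, 17.7 and 4.99 CPM against 10.8, 1.54, 11.2 and 2.86 CPM. Its values overlapped between samples, and the rise was much steeper in the control samples.

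GABRG3, the gamma-3 subunit of the GABA-A receptor, was at 151, 69.4, 86.1 and 116 CPM against 38.9, 20.8, 53.7 and 33.2 CPM (log2 1.53, SE 0.18, adjusted p = 0.00265). Its antisense gene GABRG3-AS1 rose with it (log2 1.65, SE 0.19). BRINP3, a neural protein induced by retinoic acid, rose by 1.47 on the log2 scale (SE 0.18), as did the overlapping antisense gene AL354771.1 (1.59, SE 0.17). Whether counting used the strand is not given in the sources used here, so each gene and its antisense partner cannot be told apart. The other large rises were those of CDH18-AS1 (1.59, SE 0.26), EDNRB-AS1 (1.57, SE 0.20), the actin nucleator LMOD1 (1.50, SE 0.21) and AC005234.2 (1.46, SE 0.14).

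The falls were smaller. SHOX2 was at 0.785, 9.73, 8.62 and 20.0 CPM in serotonergic and 5.28, 18.8, 21.1 and 38.7 CPM in other neurons (log2 fold change -1.24, SE 0.21, adjusted p = 0.00824). It was lower in all 4 samples, while its level differed more between samples than between identities. AC011228.2 (-1.25), the methyltransferase cofactor TRMT112 (-1.12), the long non-coding RNA CYTOR (-1.07), AL118516.1 (-1.06), the keratin gene KRT10 (-0.98), the zinc finger gene ZMAT4 (-0.95), the inducible heat shock gene HSPA1A (-0.95) and SVIP (-0.94) were the other large falls reported.

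These 19 genes were fitted again in other sets of nuclei. All 19 kept their direction in the control samples alone and in the PP121 samples alone, where 19 and 12 passed. They had been chosen for the same direction in all 4 samples, so their direction in these sets was largely fixed by that choice. Without control replicate 1, 13 of the 19 passed. With equal numbers of serotonergic and other neurons drawn from every neuron subtype, all 19 kept their direction and 10 passed. Where neurons with a TPH1 UMI were compared with those without, irrespective of the call, 16 of 19 kept their direction and none passed in edgeR, with 8 genes passing of all tested other than TPH1, TPH2 and SLC6A4 and 975 at an unadjusted p under 0.05. The TPH1-positive nuclei numbered only 40, 28, 56 and 23, and most of them carry the call. Where neurons with a TPH2 UMI were compared with those without, 11 of 19 kept their direction and 3 passed. The TPH2-positive nuclei numbered 62 and 35 in the control samples and 13 and 8 in the PP121 samples. By UMIs of any of TPH1, TPH2 and SLC6A4, 14 of 19 kept their direction and 4 passed, and for the serotonergic identity alone against no identity 11 could be tested, of which all kept their direction and 1 passed. For BRINP3 the log2 fold change was 1.03 (SE 0.22, adjusted p = 0.109) by TPH1 UMIs and -0.98 (SE 0.22, adjusted p = 0.00264) by TPH2 UMIs. The difference between these definitions was not tested. The sets by treatment, by subtype and by UMIs of TPH1 or TPH2 alone were chosen after the data had been seen.

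**Figure D2:**
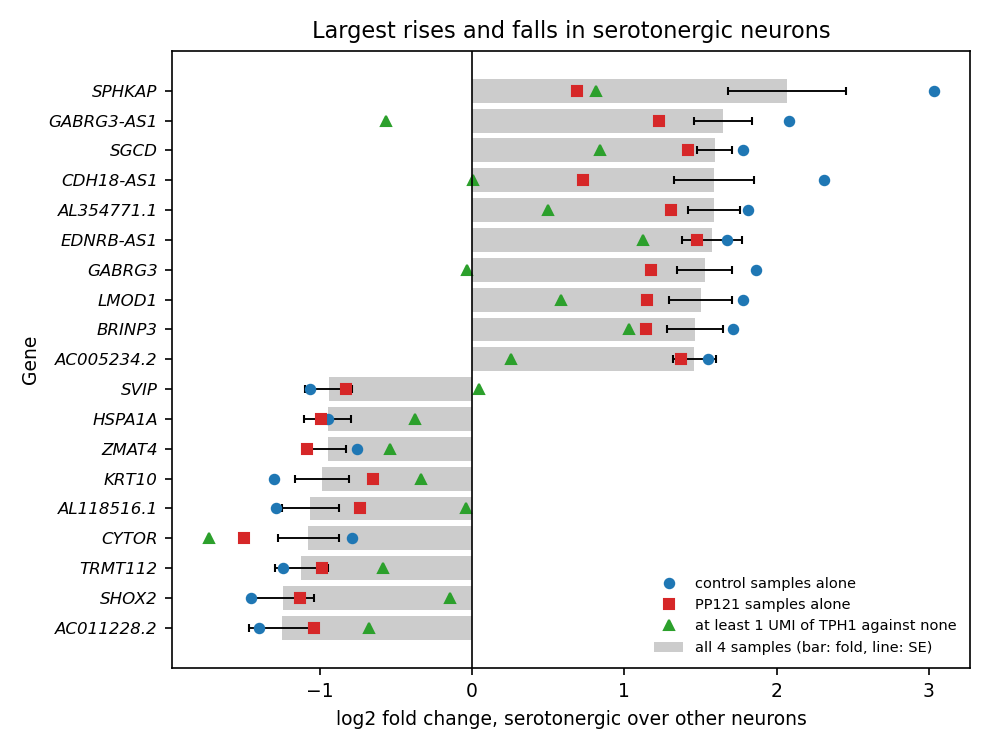
The 10 largest rises and 9 large falls in serotonergic neurons. The horizontal axis is the log2 fold change over other neurons; bars with SE lines use all 4 samples, circles the control samples, squares the PP121 samples, and triangles compare neurons with a TPH1 UMI with those without. Circles and squares lie on the side of the bar for all 19 genes, which is part of how the genes were chosen. Triangles lie across 0 for GABRG3-AS1, GABRG3 and SVIP.

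Gene lists for the transmitter systems were then read by role. Over all lists and without TPH1, TPH2 and SLC6A4, 125 of 211 genes were tested and 20 passed, 12 higher and 8 lower. Over all genes tested 11.4% passed, 6.31% as higher and 5.04% as lower, and most lists below hold too few genes to be read against these shares. With the marker SLC6A4 left aside, SLC29A4 alone passed in the monoamine storage and uptake list (log2 0.43, SE 0.12, adjusted p = 0.0428). This monoamine transporter takes up serotonin at the plasma membrane. Its levels were 33.8, 35.5, 28.2 and 32.9 CPM in serotonergic and 23.4, 22.9, 25.4 and 24.1 CPM in other neurons, which do not overlap. None of the 5 tested genes for the hydroxylase cofactor tetrahydrobiopterin passed (median log2 fold change -0.20), and neither did any of 5 tested genes of monoamine breakdown (median 0.33), against a median of 0.00 over all genes. MAOA, the main serotonin-degrading oxidase, was at 131 to 157 CPM in serotonergic and 133 to 151 CPM in other neurons.

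Most transcription factors known from serotonergic neurons of the hindbrain were too low to test. Of 14 listed factors 5 could be tested. FEV, the factor that switches on the serotonergic programme, gave 0 UMIs in serotonergic neurons and 1 in other neurons, GATA2 gave 5 and 2, and NKX2-2 gave 0 and 1. LMX1B, a LIM-homeodomain factor of serotonergic and dopaminergic neurons, was detected at 7.07, 33.8, 17.7 and 36.4 CPM in serotonergic and 9.07, 31.6, 41.4 and 93.4 CPM in other neurons. It passed as lower (log2 fold change -0.77, SE 0.21, adjusted p = 0.0406), but control replicate 2 went the other way and the control samples alone gave -0.09. Among 17 serotonin receptors 3 could be tested, and HTR3E, a subunit of the ionotropic receptor, was higher (log2 1.08, SE 0.29, adjusted p = 0.0357; 26, 17, 27 and 3 UMIs against 29, 21, 24 and 7). HTR2B was the best detected receptor by UMIs and did not pass (log2 0.03, SE 0.11), with 29.7 to 34.4 CPM in serotonergic and 28.3 to 34.6 CPM in other neurons.

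Both genes for GABA synthesis rose in serotonergic neurons. GAD2, which encodes a GABA-synthesising enzyme, was at 174, 94.7, 159 and 46.4 CPM against 94.9, 50.2, 77.4 and 31.8 CPM (log2 0.87, SE 0.10, adjusted p = 0.0025). GAD1, the second such enzyme, was at 64.4, 35.5, 73.8 and 41.4 CPM against 38.8, 29.2, 37.8 and 21.8 CPM (log2 0.74, SE 0.13, adjusted p = 0.00854). Thus 2 of 5 GABA genes passed, where 6.31% of all genes passed as higher, and the list is too short to be read against that share. With equal numbers from every subtype neither passed (log2 0.23 and 0.11, adjusted p = 0.189 and 0.66). By TPH2 UMIs the fitted values of GAD2 and GAD1 were -0.42 and -0.90, and neither passed.

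Genes of the remaining transmitters were lower or mixed. TH, the rate-limiting enzyme of catecholamine synthesis, was at 4.71, 9.30, 6.63 and 8.48 CPM in serotonergic and 10.8, 11.4, 11.8 and 14.5 CPM in other neurons, with no overlap (log2 fold change -0.79, SE 0.19, adjusted p = 0.0273). SLC5A7, the choline transporter, also fell (-1.14, SE 0.29, adjusted p = 0.0296). CHAT, which makes acetylcholine, was lower in both control samples (12.4 and 7.61 against 21.2 and 19.2 CPM) and higher in both PP121 samples (25.9 and 9.48 against 12.3 and 5.53 CPM). CHAT overlaps SLC18A3 on the same strand, and whether counting kept them apart is not given in the sources used here. Of the vesicular glutamate transporters SLC17A6 fell (-0.71, SE 0.18, adjusted p = 0.0305) and SLC17A8, known from serotonergic neurons of the brain, rose (1.17, SE 0.33, adjusted p = 0.0424) on 55 UMIs in serotonergic nuclei. No nitric oxide gene passed. NOS1 was at 2.75, 11.8, 11.6 and 14.0 CPM against 4.71, 3.44, 3.62 and 7.85 CPM, lower in control replicate 1 and higher in the other samples.

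Among 15 tested neuropeptide and granin genes NMU alone passed, as lower (-0.57, SE 0.14, adjusted p = 0.0273). Of 21 genes of neuronal maturity and the synapse, the cell adhesion gene NRXN3 and the RNA-binding protein gene ELAVL3 were higher (0.46 and 0.33) and the neurofilament gene NEFL was lower (-0.62). Of the tested sodium and calcium channel genes, CACNA1A was higher (0.33, SE 0.09). Set against the 11.4% of all genes that passed, nothing is read from these counts about the lists. None of the 2 tested receptor genes for GDNF or endothelin passed.

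Markers of other cells that a nucleus could hold were given the same reading. Of the enterochromaffin and enteroendocrine list, whose cells use TPH1, none of 8 genes could be tested: NEUROG3, PAX4 and REG4 gave 0 UMIs in serotonergic neurons and NEUROD1 gave 16. Of the mast cell and platelet list, the defining genes TPSAB1, PF4 and PPBP were at 0, CPA3 gave 1 and HDC 2 UMIs, and KIT, which other cell types also use, gave 201 UMIs and did not pass. Epithelial EPCAM, the 4 tested glial genes and the 1 tested photoreceptor and pineal gene did not pass. Of 11 tested mesenchymal genes FN1 (0.57, SE 0.12) and EDNRA (0.65, SE 0.17) were higher, while none of the 5 collagen genes passed (log2 fold changes -0.61 to -0.14), and of 7 progenitor genes PAX7 was lower (-0.50, SE 0.12). The share of nuclei among the highest doublet scores was 5.15, 5.06, 2.17 and 2.49% in serotonergic and 4.70, 5.52, 3.22 and 2.94% in other neurons, and without them 1769 genes passed.

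A further transmitter identity was carried by 1562 of the 1740 serotonergic neurons (89.8%). Most other neurons also carried one. Those without any of these other identities made up 16.3, 4.64, 8.53 and 5.97% of serotonergic and 14.8, 12.8, 12.0 and 9.80% of other neurons (samples in the order above). GABAergic calls were more frequent among serotonergic than other neurons in 4 of 4 samples (by 10.3 to 34.5 percentage points, mean 18.4 ± 10.9 (SD, n = 4); exact sign-flip p = 0.125, adjusted 0.292 over 7 comparisons). Nitrergic calls were more frequent in 4 of 4 samples (mean 6.83 ± 3.38 points) and catecholaminergic calls less frequent in 4 of 4 (mean -12.9 ± 4.79 points), each with the same exact p, which is the smallest that 4 pairs can give. None of the 7 comparisons can therefore pass at this number of samples. Cholinergic calls were less frequent in both control samples (-17.0 and -9.61 points) and more frequent in both PP121 samples (29.2 and 6.10 points).

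**Figure D3:**
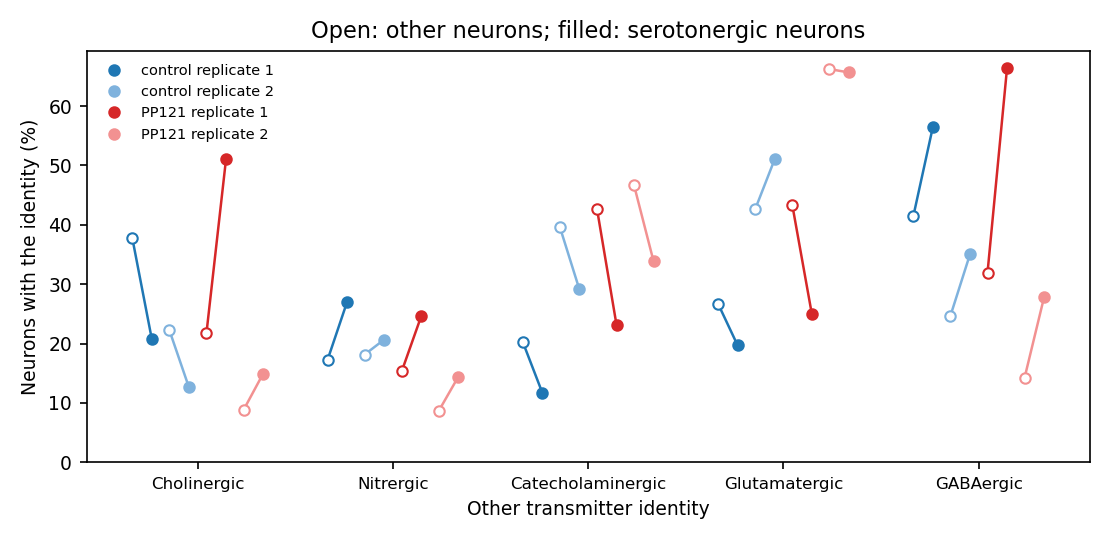
Share of neurons with each further transmitter identity (vertical axis, percent) in each sample, for other neurons (open) and serotonergic neurons (filled), joined by sample. GABAergic and nitrergic lines rise and catecholaminergic lines fall in all 4 samples, and cholinergic lines fall in the control samples and rise in the PP121 samples.

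The label was spread unevenly over the neuron subtypes of the annotation, which bear different names in control and PP121 samples. In control replicate 1, 64.4% of subtype EN 5 and 63.6% of EN 7 were serotonergic, against 2.56% of EN 1. In control replicate 2, 86.8% of EN 5 was serotonergic (46 of 53 nuclei), and in PP121 replicate 1 so was 92.9% of EN G (92 of 99). EN 7 of control replicate 2 held 9 nuclei, of which 3 were serotonergic. In PP121 replicate 2 the shares were closer together, from 11.2% of EN H to 41.4% of EN E, leaving aside EN G with 1 nucleus. In control replicate 1, TPH2 UMIs were found in 10 of 298 nuclei of EN 5 and 3 of 253 of EN 7, and in 17 of 547 nuclei of EN 1 and 15 of 378 of EN 2. TPH1 UMIs were found there in 8 of 298 and 9 of 253 nuclei, and in 4 of 547 and 4 of 378. SLC6A4 UMIs were found in 7, 9, 15 and 37 nuclei of these subtypes, in the same order. Whether the genes differ in this was not tested.

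Serotonergic and catecholaminergic neurons were compared directly, since both store monoamines. Nuclei with both calls (374 in all) were left out. The test called 1812 of 15638 genes (11.6%), 1046 higher (6.69%) and 766 lower (4.9%) in serotonergic neurons. Without control replicate 1, control replicate 2 or PP121 replicate 1 it called 774, 406 and 712. Of these, 1182 were also called against all other neurons, which is 65.2% of this list and 57.7% of the former, but both comparisons use the same serotonergic nuclei. SGCD was at 286, 137, 297 and 118 CPM in serotonergic and 35.4, 22.1, 52.3 and 13.6 CPM in catecholaminergic neurons (log2 2.79, SE 0.14, adjusted p = 3.62e-06), and the groups did not overlap. The other largest rises were SPHKAP (2.61, SE 0.45), AC090138.1 (2.51, SE 0.54), LMOD1 (2.26, SE 0.32) and EDNRB-AS1 (2.24, SE 0.27).

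The falls included transcription factors and peptide genes. TH was at 21.6 to 26.4 CPM in catecholaminergic and at 1.53 to 2.41 CPM in serotonergic neurons. The catecholaminergic call may rest on TH, but its rule is not given in the sources used here. LMX1B was at 3.12, 20.5, 7.15 and 20.6 CPM in serotonergic and 27.5, 53.7, 78.3 and 162 CPM in catecholaminergic neurons (log2 fold change -2.73, SE 0.28, adjusted p = 0.000349). The homeobox genes SHOX2 (-2.85, SE 0.26) and SHOX (-2.74, SE 0.27) and AL161908.1 (-2.87, SE 0.29) were the other large falls. Beyond them the tachykinin gene TAC1 (-2.64), the PACAP gene ADCYAP1 (-2.75) and SLC17A6 (-2.23) were lower, and GAD2 (1.54), PAX3 (1.41) and NRXN3 (1.16) were higher, each with adjusted p under 0.05 in edgeR. SLC18A2, needed by both cell types, did not pass (0.30, SE 0.22).

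The share of serotonergic neurons was 24.6% (22.9 to 26.5%) and 19.2% (17.0 to 21.5%) in the control samples and 39.2% (37.0 to 41.4%) and 22.0% (19.3 to 24.8%) in the PP121 samples. The means were 21.9 ± 3.84% and 30.6 ± 12.2% (SD, n = 2 each), a difference of 8.64 points. It was larger than the SD of the control samples and smaller than that of the PP121 samples. An exact permutation test without regard to the day gave p = 0.667. The smallest possible p was 0.333, so this test cannot pass at this number of samples. The difference was 14.5 points at day 42 and 2.76 points at day 38, and without PP121 replicate 1 it was 0.0448 points, so it rested on that sample. By UMIs of TPH1, TPH2 or SLC6A4 in thinned nuclei the share was 2.51, 2.19, 2.39 and 2.52%, with overlapping intervals. Control and PP121 samples bear different subtype names, and whether the serotonergic call was made on both together is not given. A difference in the annotation and one in the cells therefore cannot be told apart.

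**Figure D4:**
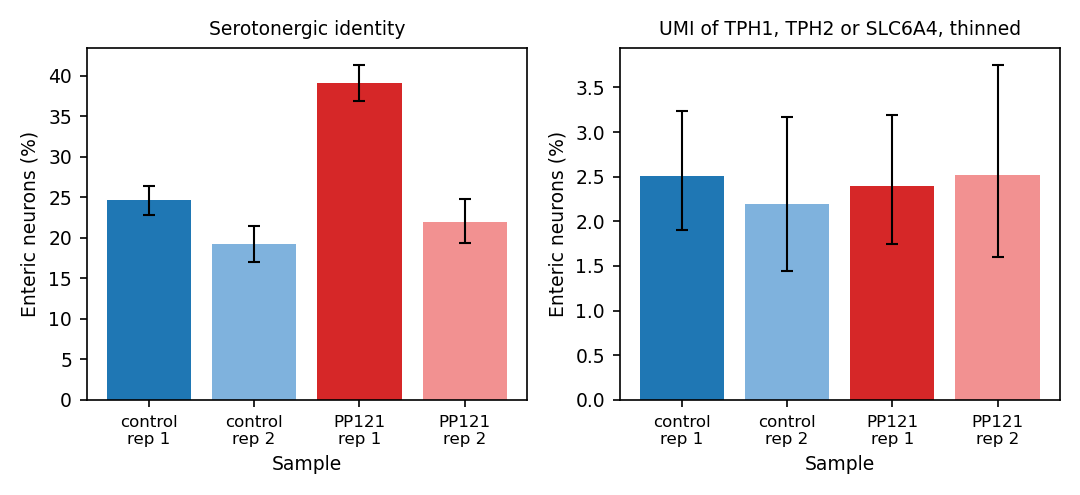
Share of enteric neurons (vertical axes, percent) in each sample with the serotonergic identity (left) and with a UMI of TPH1, TPH2 or SLC6A4 after thinning to 2000 UMIs (right); bars are shares and lines exact 95% intervals. PP121 replicate 1 stands at 39.2% on the left and at 2.39% on the right, within the intervals of the other samples.

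Within serotonergic neurons no gene passed between PP121 and control without regard to the day (edgeR, 0 of 16815, 0%; 680 at an unadjusted p under 0.05; DESeq2 called 25). Without PP121 replicate 1 edgeR called 107, and without PP121 replicate 2 it called 1. Replicate numbers mark a shared day. Pairing the samples by day gave 107 called genes (0.636%), of which 67 rose (0.398%) and 40 fell (0.238%). DGKB, a diacylglycerol kinase, had the smallest p of the fit without the block, with 15.7 and 14.9 CPM in control and 57.5 and 71.9 CPM in PP121 samples (log2 2.06, SE 0.21, adjusted p = 0.307; with the block 2.03, SE 0.19, adjusted p = 0.0025). PRKCQ, a protein kinase C, rose with the block from 85.8 and 69.4 to 186 and 249 CPM (log2 1.44, SE 0.16, adjusted p = 0.00562; 0.698 without it). LINC02649 was at 122 and 120 CPM in control and 259 and 390 CPM in PP121 samples. None of these overlapped between treatments, and all 3 were called when samples were paired by day, by DESeq2 and by edgeR without a filter on low counts. They were named for the smallest p of the fit without the block. Both results use the same samples and follow in large part from that choice, so they are not separate support.

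With the block the largest rises were AL008633.1 (2.38), DGKB, AC007563.2 (1.98), the adenylyl cyclase gene ADCY8 (1.71) and NAALADL2-AS2 (1.69), and the largest falls AC004470.1 (-2.45), SPHKAP (-2.12), PTCHD1-AS (-1.80), AC008591.1 (-1.79) and PTCHD1 (-1.75). AC004470.1 lies within PTCHD1-AS on the other strand. Of 118 tested list genes 5 passed with the block, the neurofilament genes NEFL (1.10) and NEFM (1.21) and the transcription factor EBF1 (0.65) as higher, and the sodium channel gene SCN2A (-0.97) and the transcription factor MEF2C (-0.88) as lower. SCN2A was at 75.6 and 71.1 CPM in control and 37.0 and 38.4 CPM in PP121 samples. The marker genes of the identity did not pass: the log2 fold change with the block was 0.01 for TPH1 (SE 0.28), -0.38 for SLC6A4 (SE 0.27) and -1.63 for TPH2 (SE 0.48, adjusted p = 0.226).

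The difference of the PP121 effect between serotonergic and other neurons was tested as an interaction, which passed for 203 of 19341 genes (1.05%), 41 higher (0.212%) and 162 lower (0.838%). Without control replicate 2 or PP121 replicate 2 it passed for 134 and 106. A negative value means that the excess of serotonergic over other neurons was smaller with PP121. EPHA6, an ephrin receptor, was at 505 and 392 CPM in serotonergic and 145 and 163 CPM in other neurons of the control samples, and at 303 and 110 against 367 and 322 CPM in the PP121 samples (log2 difference -2.37, SE 0.29, adjusted p = 0.00108). CHAT showed the opposite turn (1.95, SE 0.31, adjusted p = 0.00504). Its excess lay in other neurons of the control samples and in serotonergic neurons of the PP121 samples. The overlap of CHAT with SLC18A3 limits this reading too. Subtype names differ between treatments, and whether the call was made on both together is not given. Annotation and treatment therefore cannot be told apart.

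**Figure D5:**
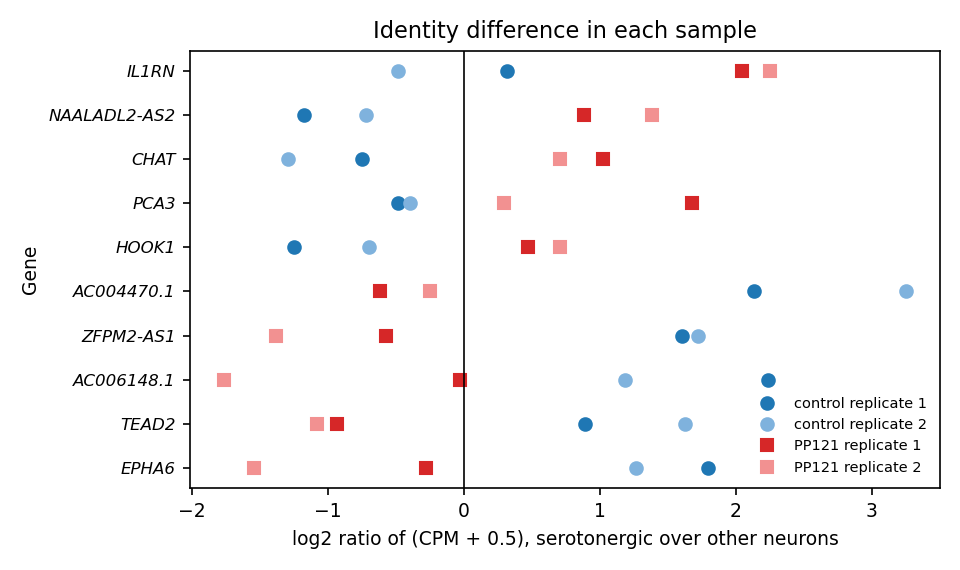
Log2 ratio of serotonergic to other neurons (horizontal axis, CPM with 0.5 added) in each sample for the 5 largest positive and 5 largest negative interactions. Control samples (circles) and PP121 samples (squares) do not overlap for any of the 10 genes, which is part of how they were chosen.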

How the data were processed

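Droplet-based single-nucleus libraries of 4 samples were analysed. The deposited matrices hold UMI counts per gene and nucleus. The submitters' processing notes name Cell Ranger, Seurat 4.0.4 and GRCh38, while the study's methods name kallisto and bustools. Cell classes, subtypes and transmitter identities were taken from the deposited annotation, whose count and percent columns (UMIs, features, mitochondrial and ribosomal percent) the authors computed for filtering. Imputed expression was used by the authors after cell types were named, and the rule for the serotonergic identity is not given in the sources used here. Sample names inside the deposited annotation of both control files disagree with the labels in replicate number and, for control replicate 2, in stage. Samples follow the labels, and the pairing follows the day recorded for the nuclei of each file. Between 0 and 3 neuronal barcodes were shared per pair of libraries.

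Serotonergic neurons were those the annotation calls so, and the gene lists were chosen with earlier results of these data known. Counts were summed per sample and identity (2061146 to 6067844 UMIs for serotonergic and 5887652 to 13768160 for other neurons, which bounds the precision of low genes) and tested with edgeR 4.0.16 (TMM, filterByExpr, quasi-likelihood, two-sided, Benjamini-Hochberg over all genes tested, threshold 0.05) with the sample as block in comparisons within samples. Adjusted p-values in the text come from this model unless another tool is named. PP121 was compared over 4 sums without and with the replicate number as block. The numbers pair samples of the same day, and deviations of same-numbered samples correlated at 0.397 in serotonergic and 0.374 in other neurons. Nothing was tested over nuclei as replicates. Levels are counts per 1000000 (CPM) after TMM scaling, and standard errors are those of log2 fold changes. Levels are compared between groups for 1 gene at a time.

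The text names, against other neurons, the 10 largest rises and falls among called genes with a mean of at least 10 CPM and the same direction in all 4 samples, and elsewhere the 5 largest with groups that do not overlap (where paired, the same direction in all samples), or the 3 smallest p where none passed, besides members of the 23 lists. Results for some of these genes are not reported here. In the PP121 comparison the rule of 5 was applied to the blocked fit after its calls were seen. Gene positions are from GENCODE on GRCh38, which holds 40 of the 44 genes so chosen. Shares have exact Clopper-Pearson 95% intervals. Scripts were tested on simulated counts. DESeq2 1.42.0, R 4.3.3, Python 3.11.15, scanpy 1.11.5 and scipy 1.17.1 were used. Scrublet's own threshold marked 2 of 14812 nuclei, which does not work. In its place the nuclei with the highest scores in each sample were left out (257, 179, 236 and 168, 840 in all).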

Additional observations from a re-analysis of the deposited data

Results flagged for a closer look

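The difference between PP121 and control samples was not the same in serotonergic and other neurons for 203 genes by the interaction test (edgeR, adjusted p under 0.05). Whether the call was made on control and PP121 nuclei together is not given. A change in which nuclei got the call and an effect of PP121 on the cells cannot be told apart. Of the genes chosen by size, the log2 difference of the effect was 2.18 for IL1RN, 2.07 for NAALADL2-AS2, 1.95 for CHAT, 1.76 for PCA3 and 1.64 for HOOK1, and -3.13 for AC004470.1, -2.64 for ZFPM2-AS1, -2.39 for AC006148.1, -2.38 for TEAD2 and -2.37 for EPHA6. Among list genes the values were -1.22 for LMX1B, -0.94 for PAX3, a transcription factor of neural crest progenitors, and -0.68 for the synaptic vesicle gene SYT1. Each passed the same test.

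The cholinergic share of serotonergic minus other neurons was -13.3 points on average in the control samples and 17.7 points in the PP121 samples, with both samples of each group on the same side. This difference was not tested. No group has the 4 samples needed to look for a sample that stands apart within it.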

How the results depend on the processing

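The count of genes called between serotonergic and other neurons was 2049, and it was 1168 with DESeq2, 3211 without a filter on low counts, 838 by UMIs of TPH1, TPH2 or SLC6A4, 31 for the serotonergic identity alone against no identity, 908 after thinning and 0 without the sample block (edgeR, 3430 at an unadjusted p under 0.05). With choices made after the data had been seen it was 796 with equal subtypes, 8 by TPH1 UMIs, 185 by TPH2 UMIs, 3585 in control and 354 in PP121 samples. Leaving out 1 sample gave 174 (without control replicate 1) to 2629 (without PP121 replicate 2). For PP121 in serotonergic neurons the count was 0 in edgeR (680 unadjusted), 25 with DESeq2, 245 without the filter, 107 with the replicate block and 54 with the block and DESeq2, and leaving out 1 sample gave 0 to 107 (without PP121 replicate 1). The interaction count of 203 became 113 with DESeq2 and 515 without the filter, and 106 (without PP121 replicate 2) to 294 with a sample left out. The count of 1812 against catecholaminergic neurons became 1094 with DESeq2, and 406 (without control replicate 2) to 2139 with a sample left out. The cause of these moves was not tested.

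The difference in the serotonergic share ranged from 0.0448 to 17.2 points with a sample left out. For the further identities, leaving out PP121 replicate 1 turned the mean difference of 2.18 points for cholinergic, -4.37 for glutamatergic and 3.87 for 2 or more other identities. With a sample left out they ranged from -6.84 to 8.58, -8.64 to 0.285 and -2.10 to 6.30 points.

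Of 38 genes named against other neurons 19 kept their direction under every alternative run. The others turned only under UMI definitions. By TPH2 UMIs the log2 fold change was 0.44 for AC011228.2, -1.74 for AL354771.1, -0.98 for BRINP3, -0.24 for CACNA1A, -0.74 for CDH18-AS1, -0.46 for EDNRA, -0.69 for GABRG3, -0.55 for GABRG3-AS1, -0.90 for GAD1, -0.42 for GAD2, -0.017 for NRXN3, -0.14 for SGCD and -0.61 for SPHKAP. By TPH1 UMIs it was -0.087 for ELAVL3, -0.032 for GABRG3, -0.56 for GABRG3-AS1, 0.13 for LMX1B, 0.28 for SLC17A6, -0.29 for SLC29A4, 0.044 for SVIP and 0.61 for TH. By UMIs of any of the 3 genes it was -0.0010 for AL354771.1, -0.067 for CACNA1A, -0.41 for CDH18-AS1, -0.36 for GABRG3, -0.33 for GABRG3-AS1, -0.056 for GAD1, -0.068 for GAD2, -0.11 for SPHKAP and 0.042 for TH. For PP121, EBF1 ranged from -0.076 (without PP121 replicate 2) to 1.31 with a sample left out. No direction turned in the interaction or against catecholaminergic neurons. Genes named by size there had been picked for groups that do not overlap or for the same direction in all samples. Scrublet's own candidates were not left out, since its threshold did not work. Depth limits TPH1, TPH2, DDC and SLC6A4. In the 1740 serotonergic neurons TPH1 gave 151 UMIs, TPH2 56 and DDC 25, and 135 nuclei held an SLC6A4 UMI.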
